A study of Mus musculus with 10 samples.

Results

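Newborn intestine meets its first microbes with a set of receptors that bind bacterial and viral products. The 10 genes described here encode 5 Toll-like receptors (Tlr2, Tlr3, Tlr4, Tlr5 and Tlr9) and the adaptor MyD88 (Myd88). The others encode the cytosolic sensors NOD1 and NOD2 and a pair of regulators that act on NF-kB (Nfkbiz and Tnfaip3). The 10 genes were chosen by gene symbol for their place in these pathways, with earlier results of these data known. All 10 were found among the 24062 genes counted, and all 10 passed the filter on low counts. The libraries came from whole jejunum of C57BL/6 mice at postnatal day 5, with 5 wild-type (WT) and 5 KSR23 libraries. KSR23 mice carry an IL-23 cassette (p19 and p40) behind a floxed STOP in the ROSA26 locus together with a Cre gene under the K14 promoter, which directs IL-23 to cells with an active K14 promoter such as keratinocytes. The controls lack this pair of alleles, and the study describes them as littermates. The strain was kept under specific pathogen-free conditions, and sex was not given in the labels.

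Toll-like receptors sit at the cell surface (TLR2, TLR4, TLR5) or in endosomes (TLR3, TLR9), and NOD1 and NOD2 sense peptidoglycan fragments in the cytosol. Apart from TLR3, which signals through TRIF, the Toll-like receptors named here pass their signal through MyD88 to IRAK and TRAF proteins, and both families converge on the IKK complex and NF-kB. NF-kB then induces cytokine and chemokine genes as well as its own regulators, among them IkB-zeta (Nfkbiz), a nuclear cofactor needed for a subset of target genes, and A20 (Tnfaip3), a ubiquitin-editing enzyme that shuts the pathway down.

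Depth was 25.5 to 32.0 M counts per WT library and 31.2 to 60.9 M per KSR23 library. On these unscaled totals 3 counts corresponded to 0.0492 to 0.118 counts per 1000000 counts of the library (CPM). In both groups, replicates 4 and 5 had intermediate values at most genes. Of 9737 genes with a mean of 5 CPM or more, they held the highest or lowest value of their group at only 8.53% to 18.4%, against 45.7% to 75.6% in replicates 1 to 3, where 40% is expected of exchangeable libraries. The study describes the 5 libraries of each group as biological replicates, and the labels do not tie them to animals. Whether any library holds RNA of more than 1 animal or shares RNA with another was not tested, and the SDs over n = 5 and the p-values over 10 libraries take all libraries as independent. The 10 genes and the pathway lists were also fitted on replicates 1 to 3 alone, where Tlr9 was under the filter. Counts of 4 Y-linked genes over replicates 1 to 5 were 6347, 4361, 492, 5831 and 4471 in WT. In KSR23 they were 9035, 9, 1, 4330 and 1, so 3 of 5 libraries had 9 or fewer. The Y-linked level was thus unevenly spread over the groups and cannot be fully told apart from genotype. The inactive X chromosome transcribes Xist, whose counts over replicates 1 to 5 were 9, 2, 919, 24 and 167 for WT and 14, 447, 1376, 691 and 1685 for KSR23. WT replicates 3 and 5 and KSR23 replicate 4 thus held more than 100 counts of both kinds. As a check of the labels, Il12b (the p40 subunit) had 0 to 5 counts in WT and 9 to 40 in KSR23 libraries, and Il22, a cytokine induced by IL-23, had 0 or 1 count in WT and 137 to 329 in KSR23. Il23a (p19) did not pass the test (log2 fold change 0.95, adjusted p = 0.27).

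Of the 10 genes, 5 differed between KSR23 and WT jejunum by both tests and without overlap of their CPM values. Tlr2, Tlr3, Nfkbiz and Tnfaip3 were higher in KSR23, by 4.78, 2.09, 4.58 and 5.04 times, and Tlr5 was 5.28 times lower. Myd88 and Tlr4 were 1.94 and 1.88 times higher and passed the likelihood ratio test only. Tlr9, Nod1 and Nod2 passed neither test. The likelihood ratio test in edgeR (adjusted p below 0.05 over 17632 genes, Benjamini-Hochberg) thus called 6 of the 10 genes higher, where it called 9.73% of all genes higher, and 1 lower, where it called 8.76% of all genes lower. The quasi-likelihood F test, which also accounts for the uncertainty of each gene's dispersion, called 4 of 10 higher against 8.47% of all genes, and 1 lower against 6.91%. Values did not overlap above WT for 4 of 10 against 7.41% of all genes, and below WT for 1 against 6.99%. DESeq2 called 6 of the 10 higher and 1 lower, against 10.9% and 10.2% of all genes. The median log2 fold change was 0.93 over the 10 genes and 0.03 over all genes tested.

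With replicates 1 to 3 alone fewer of the genes passed the test. Of the 7 genes called on 10 libraries, the log2 fold changes were then 2.26 (Tlr2), 1.15 (Tlr3), 0.92 (Tlr4), -2.36 (Tlr5), 0.87 (Myd88), 2.01 (Nfkbiz) and 2.48 (Tnfaip3), while Nod2 moved from -0.31 to -1.10. The likelihood ratio test then called 2 genes higher, Tlr2 (log2 fold change 2.26, SE 0.63, adjusted p = 0.0228) and Tnfaip3 (2.48, SE 0.53, adjusted p = 0.000747), against 2.01% of all genes. It called none of the 9 genes tested lower, against 1.35% of all genes, and Tlr5 stood at -2.36 (SE 0.81, adjusted p = 0.11). The quasi-likelihood test called Tnfaip3 higher (adjusted p = 0.0399), against 0.574% of all genes, and none lower, against 0.238%.

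**Figure D1:**
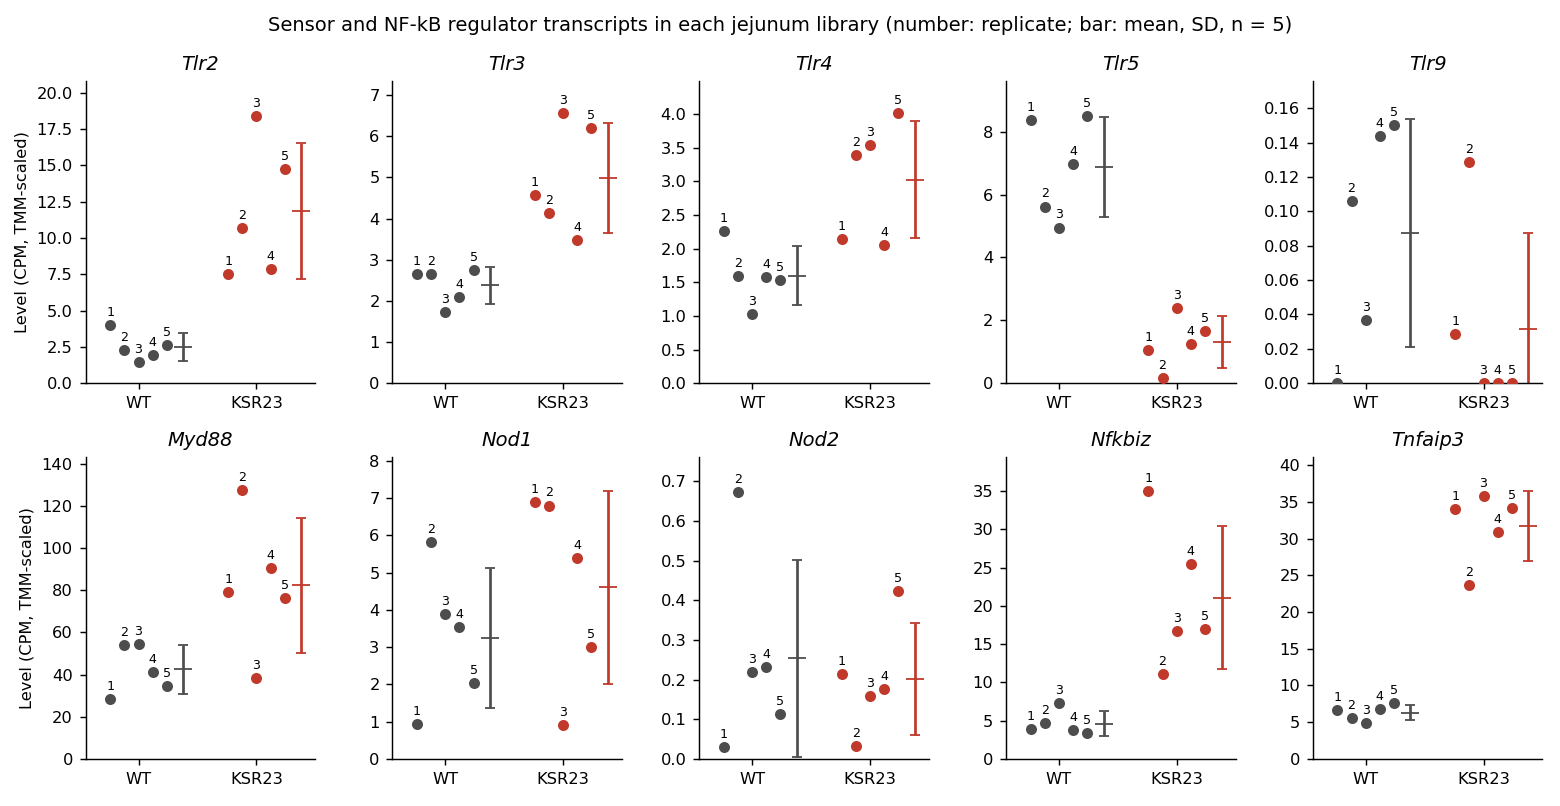
Level of each of the 10 genes in CPM on TMM-scaled totals (y axis, one scale per panel) in the 5 WT (grey) and 5 KSR23 (red) libraries, each point marked with its replicate number and each bar giving the mean and SD (n = 5). The WT and KSR23 points are apart for Tlr2, Tlr3, Nfkbiz and Tnfaip3 (KSR23 higher) and for Tlr5 (KSR23 lower), and overlap for the other 5 genes; the lower end of the KSR23 bar of Tlr9 is cut at 0.

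NF-kB binds promoters of many genes of its own pathway, and the region around the start site is therefore shown for the genes called by both tests. RefSeq (GRCm38.p6) held such a window, 250 bases before to 50 after the annotated start, for 8 of the 10 genes, and for 4 of these 5; Nfkbiz has no entry. The sequences below are written 5′ to 3′ on the gene's strand, with matches to a loose NF-kB motif, GGG and CC with any 5 bases between them, on either strand in capitals. They lie at chr3:83841559-83841858 on the minus strand (Tlr2), chr8:45410331-45410630 on the minus strand (Tlr3), chr1:182954538-182954837 on the plus strand (Tlr5) and chr10:19015361-19015660 on the minus strand (Tnfaip3, the first of 2 listed starts).
Tlr2: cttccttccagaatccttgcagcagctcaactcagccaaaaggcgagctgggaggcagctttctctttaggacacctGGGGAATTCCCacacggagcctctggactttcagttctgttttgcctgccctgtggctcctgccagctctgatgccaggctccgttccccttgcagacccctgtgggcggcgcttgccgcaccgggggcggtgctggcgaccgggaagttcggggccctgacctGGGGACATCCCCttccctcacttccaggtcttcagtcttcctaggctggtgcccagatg
Tlr3: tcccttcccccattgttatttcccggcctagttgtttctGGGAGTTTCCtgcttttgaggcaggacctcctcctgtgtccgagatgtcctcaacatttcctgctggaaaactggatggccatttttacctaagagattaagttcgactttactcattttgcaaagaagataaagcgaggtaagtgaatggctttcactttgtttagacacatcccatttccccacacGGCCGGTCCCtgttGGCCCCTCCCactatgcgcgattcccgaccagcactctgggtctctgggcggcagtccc
Tlr5: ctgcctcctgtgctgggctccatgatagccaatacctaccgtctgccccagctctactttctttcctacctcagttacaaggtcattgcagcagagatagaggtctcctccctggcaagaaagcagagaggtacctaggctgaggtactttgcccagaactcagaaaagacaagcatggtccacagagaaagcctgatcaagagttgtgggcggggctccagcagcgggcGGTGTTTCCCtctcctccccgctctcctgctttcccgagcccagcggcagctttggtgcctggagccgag
Tnfaip3: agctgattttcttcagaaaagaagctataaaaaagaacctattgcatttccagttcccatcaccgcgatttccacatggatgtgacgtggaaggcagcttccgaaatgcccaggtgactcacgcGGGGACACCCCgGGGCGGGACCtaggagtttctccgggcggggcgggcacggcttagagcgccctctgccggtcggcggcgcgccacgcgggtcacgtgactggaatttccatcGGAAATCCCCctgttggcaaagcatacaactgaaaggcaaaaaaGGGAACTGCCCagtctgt
Counting overlapping windows, the NF-kB motif matched 5 times in the Tlr2 window, 3 times in Tlr3, 1 time in Tlr5 and 6 times in Tnfaip3. This loose motif occurs in 50.8% of the 32817 mouse promoter windows of this length, so a match, also that of the lower gene Tlr5, is a description of the letters only. The STAT motif TTCNNNGAA was absent from these 4 windows and occurs in 8.29% of all windows. The Myd88 window held 1 STAT match and no NF-kB match.

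TLR2 recognises bacterial lipoproteins as a heterodimer with TLR1 or TLR6. Tlr2 (chr3:83836272-83841767, mm10, minus strand) stood at 4.02, 2.30, 1.47, 1.93 and 2.63 CPM in WT replicates 1 to 5 and at 7.51, 10.7, 18.4, 7.83 and 14.8 CPM in KSR23 replicates 1 to 5. The lowest KSR23 library was above the highest WT library. The means were 2.47 ± 0.97 and 11.8 ± 4.69 CPM (SD, n = 5), and the log2 fold change was 2.26 (SE 0.38, adjusted p = 5.71e-07 in the likelihood ratio fit, 0.00139 under quasi-likelihood). With the Y-linked level as a covariate it was 1.75 (adjusted p = 0.00345). In whole tissue a change in the number of cells that express a gene and a change in RNA per cell cannot be told apart.

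The partner TLR1 rose with it, and TLR6 did not pass the test. Tlr1 went from 2.45 ± 0.76 to 9.71 ± 4.86 CPM without overlap (SD over n = 5; log2 fold change 1.98, SE 0.39, adjusted p = 3.02e-05), where 10.6% of its 75-base stretches also occur in other genes. Tlr6 stood at -0.47 (SE 0.52, adjusted p = 0.584). It was the sole one of 7 further Toll-like receptor genes (Tlr1, Tlr6, Tlr7, Tlr8, Tlr11, Tlr12, Tlr13) below 0, and Tlr1 was the sole one called. Of 10 genes for receptor accessory proteins, 3 were higher and 1 lower by both tests, against 8.47% and 6.91% of all genes under quasi-likelihood. The higher ones carry lipids or lipopolysaccharide to the receptors. Lbp (lipopolysaccharide-binding protein) rose from 7.10 ± 1.69 to 43.9 ± 11.5 CPM (log2 fold change 2.63, adjusted p = 7.46e-14), Cd14 from 8.74 ± 3.49 to 30.7 ± 7.41 CPM (1.81, adjusted p = 9.35e-06) and Cd36, also a fatty acid transporter, by 1.09 on the log2 scale (adjusted p = 0.00956). Ly86 (MD-1), the partner of the receptor homologue CD180, fell by 0.90 on the log2 scale (adjusted p = 0.013). In replicates 1 to 3 alone Lbp was the sole one of these 10 called, and Tlr1 (1.99) had an adjusted p of 0.0825 by the likelihood ratio test. That test then called 2.01% of all genes higher and 1.35% lower.

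Macrophages and neutrophils are rich in TLR2 and CD14, and their markers were examined beside these genes. The summed level of 9 macrophage markers was 949 to 1118 CPM in WT and 710 to 887 CPM in KSR23, with Cd68 and C1qb lower by both tests and, by the likelihood ratio test only, C1qc lower and Itgam higher. Sums given here without some genes leave out genes called in the list, which were chosen after their values were seen, and are a description only. Without Cd68, C1qb and C1qc the macrophage sum was 713 to 799 CPM in WT and 571 to 737 CPM in KSR23, with overlap, and its mean went from 764 to 656 CPM, against 1014 to 796 CPM with them. The removed genes were called for this change, so a smaller gap was given by their choice. Csf1r, the largest contributor to the sum, stood at -0.26 (adjusted p = 0.459), and the list's median log2 fold change was -0.43. The summed level of 9 neutrophil markers was 26.4 to 35.0 CPM in WT and 7.27 to 18.1 CPM in KSR23, with Ngp and Retnlg lower and, by the likelihood ratio test only, Elane higher. Ngp (5.83 to 1.04 CPM on average) and Retnlg (15.0 to 2.18 CPM) carried the difference in this sum, the other 7 neutrophil markers summed to 4.77 to 13.3 CPM in WT and 4.68 to 12.8 CPM in KSR23, and the median log2 fold change of the list was 0.08. How these sums relate to the levels of Tlr2, Tlr1 and Cd14 was not tested. The summed level of 9 markers of intestinal epithelium was 3538 to 4794 CPM in WT and 6015 to 9768 CPM in KSR23. Krt20 and Cdh17 were higher by both tests and Cdh1 by the likelihood ratio test only. Krt20 (359 to 1674 CPM on average) and Cdh17 (812 to 2283 CPM) made up most of this rise, and without them the groups overlapped (2099 to 3914 CPM in WT, 2981 to 5808 CPM in KSR23). Epcam stood at -0.44 (adjusted p = 0.686). No marker of these 3 lists was at 0 in all libraries. The summed level of 5 markers of Paneth cells, which secrete antimicrobial proteins at the crypt base, was 180 to 304 CPM in WT and 570 to 1165 CPM in KSR23. Lyz1 (log2 fold change 3.24) and Mmp7 (2.88) were higher and Ang4 (-0.85) lower by both tests, while the defensin genes Defa24 (-0.08) and Defa17 (0.03) were not called. Without Lyz1 and Mmp7 the Paneth sum was 132 to 243 CPM in WT and 110 to 232 CPM in KSR23, and the median over the 5 markers was 0.03. Of 5 markers of all leukocytes Cd52 was lower by both tests (48.7 to 20.5 CPM on average) and none was higher. The other 4 summed to 96.4 to 129 CPM in WT and 90.8 to 123 CPM in KSR23. The part of cell composition in the changes was not tested.

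**Figure D2:**
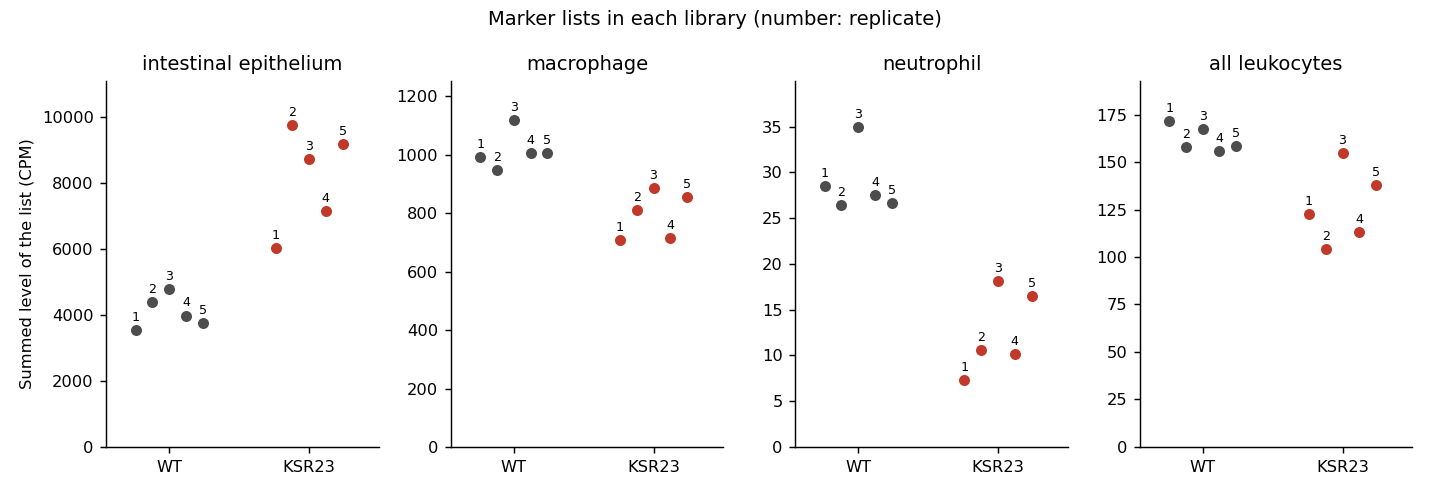
Summed level in CPM (y axis) of the marker lists of intestinal epithelium, macrophages, neutrophils and all leukocytes in each WT (grey) and KSR23 (red) library, marked with the replicate number. The epithelial sum is higher in each KSR23 library and the other 3 sums are lower in each KSR23 library. Leaving out Krt20 and Cdh17 (epithelium), Cd68, C1qb and C1qc (macrophages), Ngp and Retnlg (neutrophils) or Cd52 (leukocytes) makes the groups overlap. These genes were chosen after their values were seen.

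TLR4 binds lipopolysaccharide together with MD-2 (Ly96). Tlr4 (chr4:66827584-66930284, plus strand) stood at 2.26, 1.59, 1.03, 1.58 and 1.54 CPM in WT and at 2.15, 3.39, 3.54, 2.05 and 4.01 CPM in KSR23. WT replicate 1 lay above KSR23 replicates 1 and 4, so the groups overlapped. The log2 fold change of 0.91 (SE 0.35) was at the threshold (adjusted p = 0.0491 in the likelihood ratio fit, 0.0618 under quasi-likelihood), and the call was lost under 15 of 20 alternatives. Leaving out any of WT replicates 2 to 5 or KSR23 replicates 2, 3 and 5 was enough to lose it (0.78 to 0.96, adjusted p = 0.0729 to 0.142). Ly96 went from 36.6 ± 8.19 to 19.6 ± 9.20 CPM (log2 fold change -0.90, SE 0.38, adjusted p = 0.0824).

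TLR5 recognises flagellin and is made by epithelial cells of the newborn small intestine. It was the only one of the 10 genes called lower. Tlr5 (chr1:182954788-182976044, plus strand) stood at 8.39, 5.62, 4.95, 6.97 and 8.49 CPM in WT replicates 1 to 5 and at 1.07, 0.161, 2.38, 1.26 and 1.67 CPM in KSR23 replicates 1 to 5. Each KSR23 library lay below each WT library, and KSR23 replicate 2 held only 5 counts. The means were 6.88 ± 1.59 and 1.31 ± 0.82 CPM (SD over n = 5; log2 fold change -2.40, SE 0.49, adjusted p = 6.87e-05 in the likelihood ratio fit, 0.00744 under quasi-likelihood). With each library left out in turn it ranged from -2.72 to -2.08, and the call was lost with replicates 1 to 3 alone. Of 7 markers of mature jejunal enterocytes, Fabp2 was lower by both tests and Lct and Fabp1 by the likelihood ratio test only. Anpep stood at 0.51, Apob at 0.41 and Alpi at -0.12 on the log2 scale, with adjusted p of 0.304, 0.415 and 0.944. The 7 markers summed to 72415 to 154506 CPM in WT and 36988 to 106543 CPM in KSR23, with overlap, and most of each sum came from Apoa4, which was not called.

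Flagellin is also sensed in the cytosol, by NAIP proteins that assemble with NLRC4. None of these genes was called lower. Nlrc4 rose from 45.3 ± 8.38 to 95.3 ± 40.6 CPM (log2 fold change 1.07, adjusted p = 0.0105), Naip1 from 50.2 ± 13.4 to 130 ± 51.7 CPM (1.37, adjusted p = 0.000967) and Naip2, which senses a secretion system rod protein, from 9.47 ± 1.52 to 21.9 ± 8.78 CPM (1.21, adjusted p = 0.00317). Naip5 and Naip6, the flagellin-binding members, stood at 0.72 (adjusted p = 0.0613) and 0.37 (adjusted p = 0.528). These 4 Naip genes share 10.7% to 23.8% of their 75-base stretches with other genes, mostly each other, so their separate values are uncertain.

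TLR3 and TLR9 sense double-stranded RNA and unmethylated DNA in endosomes, where UNC93B1 delivers them. Tlr3 (chr8:45395665-45411080, minus strand) stood at 2.66, 2.65, 1.72, 2.1 and 2.74 CPM in WT and at 4.58, 4.13, 6.56, 3.49 and 6.21 CPM in KSR23. The groups did not overlap. The means were 2.38 ± 0.44 and 4.99 ± 1.33 CPM (SD over n = 5; log2 fold change 1.07, SE 0.31, adjusted p = 0.0071 and 0.0174 by the 2 tests). The call was lost under 4 of 20 alternatives, among them replicates 1 to 3 alone (1.15, adjusted p = 0.333) and the Y-linked covariate (0.85, adjusted p = 0.136). Of its exon bases 7.32% overlap Gm45542 on the opposite strand, and the library kit did not mark strand. Tlr9 (chr9:106222598-106226883, plus strand) was near the limit of detection, with 0, 3, 1, 5 and 4 counts in WT and 2, 4, 0, 0 and 0 counts in KSR23, and a difference was not detectable at this depth (log2 fold change -1.44, 95% interval -3.82 to 0.95). With single libraries left out it ranged from -2.78, without KSR23 replicate 2 (adjusted p = 0.0947), to -1.06, and without WT replicate 4 it was under the filter. Unc93b1 (0.22, adjusted p = 0.774) and Ticam1 (TRIF; 0.65, adjusted p = 0.137) passed neither test.

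Myd88 (chr9:119335934-119341411, minus strand) had the highest level of the 10 genes. It stood at 28.4, 54.2, 54.3, 41.0 and 34.7 CPM in WT and at 79.3, 128, 38.3, 90.3 and 76.0 CPM in KSR23. KSR23 replicate 3 lay within the WT range and the other 4 KSR23 libraries lay above it. The means were 42.5 ± 11.6 and 82.3 ± 32.1 CPM (SD over n = 5; log2 fold change 0.95, SE 0.34, adjusted p = 0.0364 in the likelihood ratio fit, 0.0551 under quasi-likelihood), and the call was lost under 12 of 20 alternatives. Leaving out any of WT replicates 1, 4 and 5 or KSR23 replicates 2, 4 and 5 was enough to lose it (0.79 to 0.99, adjusted p = 0.0663 to 0.115). Of its exon bases 11.3% overlap neighbouring genes, among them Acaa1a on the opposite strand, which had a log2 fold change of -0.73 (adjusted p = 0.57).

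Of 19 further adaptors and kinases, 6 were higher by both tests and none lower, against 8.47% and 6.91% of all genes under quasi-likelihood. Those with the largest change were Tirap, which bridges TLR2 and TLR4 to MyD88 (log2 fold change 1.68, SE 0.37, adjusted p = 0.000207), the ubiquitin ligases Traf6 (1.52, SE 0.46, adjusted p = 0.0106) and Traf3 (1.14, SE 0.31, adjusted p = 0.00335), and the kinases Tbk1 (0.98, SE 0.29, adjusted p = 0.00685) and Irak4 (0.92, SE 0.26, adjusted p = 0.00432). The sixth was Ikbkb, a catalytic IKK subunit. The median of the 19 was 0.51, and none was called with replicates 1 to 3 alone.

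Neither NOD gene passed a test. Nod1 (chr6:54923949-54972612, minus strand) stood at 0.929, 5.83, 3.89, 3.54 and 2.03 CPM in WT and at 6.90, 6.80, 0.914, 5.4 and 2.99 CPM in KSR23. The lowest libraries of the 2 groups were nearly equal, and the spread within each group exceeded the difference (log2 fold change 0.51, 95% interval -0.59 to 1.60, adjusted p = 0.592). Nod2 (chr8:88647315-88688474, plus strand) had 1, 19, 6, 8 and 3 counts in WT and 15, 1, 4, 10 and 15 counts in KSR23 (log2 fold change -0.31, 95% interval -1.85 to 1.23, adjusted p = 0.836). Without WT replicate 2 its direction turned (0.48). Their shared kinase Ripk2 was at 1.06 ± 0.77 and 1.09 ± 1.29 CPM (0.06, adjusted p = 0.973). These intervals leave room for changes of the size seen in Tlr3.

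Of 14 further NOD-like receptor genes, 5 were higher by both tests and none lower, against 8.47% and 6.91% of all genes under quasi-likelihood. Besides Nlrc4, Naip1 and Naip2 these were Nlrc5, a transactivator of MHC class I genes, from 1.53 ± 0.69 to 10.2 ± 4.44 CPM (log2 fold change 2.73, SE 0.43, adjusted p = 8.99e-08), and Nlrx1, a mitochondrial member (1.04, SE 0.36, adjusted p = 0.0256). Of 10 genes that bind or carry peptidoglycan fragments 8 were tested. Of the 8, 1 was higher by both tests, against 8.47% of all genes under quasi-likelihood. The likelihood ratio test also called 1 lower, against 8.76% of all genes. Pglyrp1, an antibacterial peptidoglycan recognition protein, was higher by both tests (1.56, SE 0.28, adjusted p = 1.96e-06), and Slc15a4, an endosomal carrier of such fragments, was lower by the likelihood ratio test only (-1.09, adjusted p = 0.0388). In replicates 1 to 3 alone Nlrc5 and Pglyrp1 were the sole ones of these lists called higher, by the likelihood ratio test. That test then called 2.01% of all genes higher.

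Both NF-kB regulators rose. Tnfaip3 (chr10:19000910-19015657, minus strand) stood at 6.69, 5.59, 4.88, 6.74 and 7.55 CPM in WT and at 34.0, 23.7, 35.7, 30.9 and 34.2 CPM in KSR23. The groups were far apart, and the spread within each was the smallest of the 10 genes, with coefficients of variation of 16.7% and 15.1%. The means were 6.29 ± 1.05 and 31.7 ± 4.79 CPM (SD over n = 5; log2 fold change 2.33, SE 0.28, adjusted p = 7.38e-14 in the likelihood ratio fit, 3.68e-05 under quasi-likelihood). Tnfaip3 was the only one of the 10 genes that kept its call under all 20 alternatives, from 2.25 to 2.48 on the log2 scale.

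Nfkbiz (chr16:55811375-55838899, minus strand) stood at 3.90, 4.70, 7.34, 3.74 and 3.34 CPM in WT and at 35.0, 11.1, 16.8, 25.5 and 17.0 CPM in KSR23. The groups did not overlap, and the KSR23 libraries spread from 11.1 to 35.0 CPM. The means were 4.61 ± 1.61 and 21.1 ± 9.31 CPM (SD over n = 5; log2 fold change 2.20, SE 0.38, adjusted p = 8.29e-07 and 0.00145 by the 2 tests). With replicates 1 to 3 alone it was 2.01 (SE 0.62). The gene then passed neither test (adjusted p = 0.0539 in the likelihood ratio fit, 0.186 under quasi-likelihood).

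Other brakes on the pathway were examined beside A20. Of 15 such genes, 6 were higher and none lower by the likelihood ratio test, against 9.73% and 8.76% of all genes. Under quasi-likelihood 5 of the 6 were higher, against 8.47% of all genes. Socs3, which restrains cytokine receptors that act through STAT3, rose from 3.39 ± 2.0 to 69.9 ± 61.1 CPM (log2 fold change 4.36, SE 0.60, adjusted p = 1.54e-08). Zc3h12a (Regnase-1), an RNase that degrades cytokine and Nfkbiz transcripts, rose from 1.81 ± 0.97 to 14.7 ± 5.82 CPM (3.02, SE 0.46, adjusted p = 6.47e-08). The A20-binding partners Tnip3 (2.56, SE 0.57, adjusted p = 9.96e-05) and Tax1bp1 (0.996, SE 0.25, adjusted p = 0.000896) and the deubiquitinase Cyld (1.05, SE 0.27, adjusted p = 0.0015) also rose. Tnip1, another A20-binding protein, stood at 0.50 (adjusted p = 0.266). In replicates 1 to 3 alone Socs3, Tnip3 and Zc3h12a were called higher and Sarm1 lower, by the likelihood ratio test only. That test then called 2.01% of all genes higher and 1.35% lower.

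Of 10 genes for NF-kB subunits and other IkB proteins, 3 were higher by the likelihood ratio test, against 9.73% of all genes. By both tests 1 was higher, Rel (log2 fold change 1.79, SE 0.44, adjusted p = 0.000898). That count of 1 in 10 is near the 8.47% of all genes called higher under quasi-likelihood. Nfkbia (IkB-alpha) ranged from 6.19 to 114 CPM in WT and from 37.4 to 542 CPM in KSR23 (2.12, SE 0.68, adjusted p = 0.0194 in the likelihood ratio fit, 0.0683 under quasi-likelihood). Nfkb1 stood at 0.26 (adjusted p = 0.632).

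Of 22 genes known as NF-kB targets, 11 were higher and 1 lower by both tests, against 8.47% and 6.91% of all genes under quasi-likelihood. The median log2 fold change of the 22 was 1.45. The largest changes were those of Nos2 (inducible nitric oxide synthase), from 0.361 ± 0.23 to 24.7 ± 5.06 CPM (6.07, SE 0.43, adjusted p = 1.87e-31), and of the chemokine gene Ccl20, from 5.74 ± 1.87 to 97.2 ± 51.4 CPM (4.08, SE 0.44, adjusted p = 5.21e-14). Cxcl1 (2.69, adjusted p = 0.00207), Cxcl5 (2.32, adjusted p = 0.000261) and Il12b (2.32, adjusted p = 0.00364) followed, of which Il12b is also a subunit of the transgene. Ccl5 fell by 1.85 on the log2 scale (adjusted p = 3.74e-06). In replicates 1 to 3 alone Nos2, Ccl20 and Birc3 were called higher. Several of these genes respond to other cytokine signals as well.

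**Figure D3:**
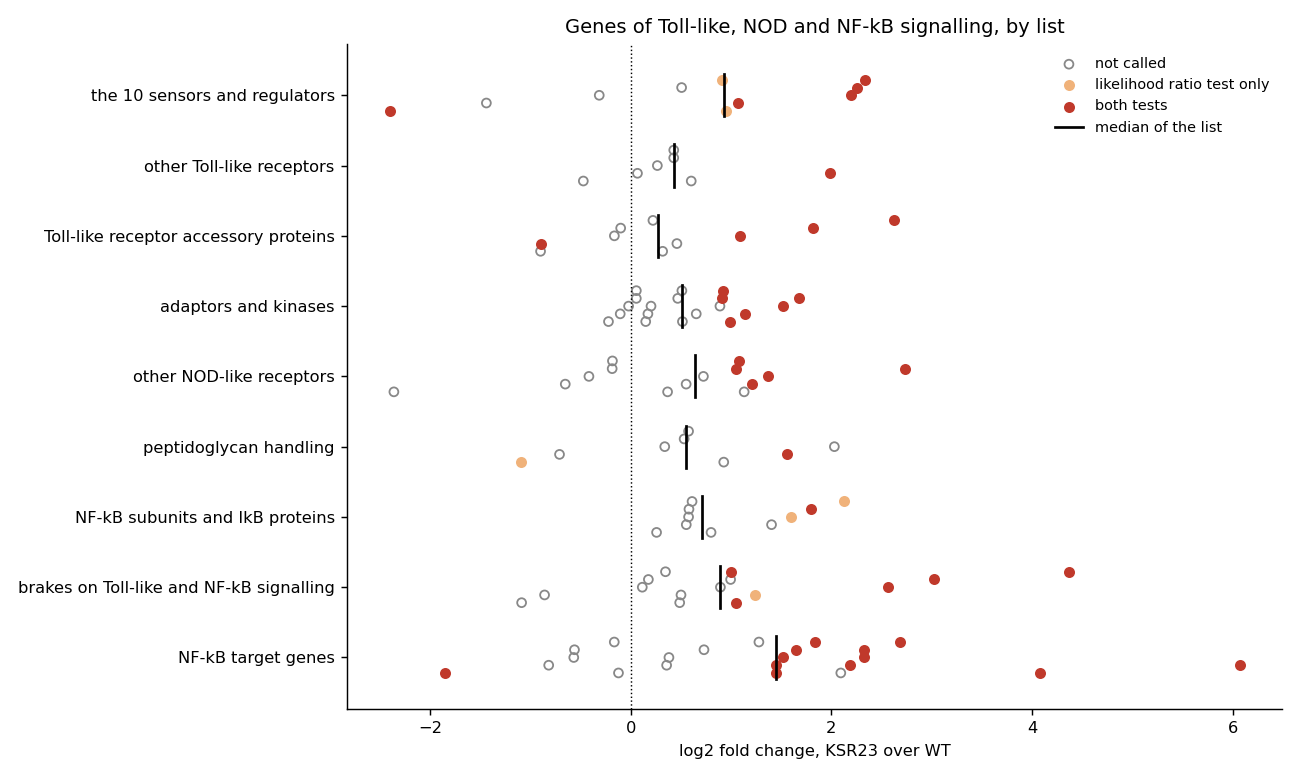
Log2 fold change of KSR23 over WT (x axis) for each tested gene of the 10 sensors and regulators (top row) and of 8 further lists of the same pathways. Filled red points passed both tests, orange points the likelihood ratio test only and open points neither, and the black bar is the list's median, which is highest for the NF-kB target genes (1.45).

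Levels were compared between genes after division by exon length. In WT the order was Myd88 (16.5 CPM per kb), Tlr5 (1.44), Nfkbiz (0.918), Tnfaip3 (0.870), Tlr2 (0.819), Nod1 (0.639), Tlr3 (0.456), Tlr4 (0.288), Nod2 (0.0505) and Tlr9 (0.0251). Only Myd88 and Tlr5, and Tlr4 and Nod2, were neighbours without overlap of their 5 libraries. In KSR23 the order was Myd88 (32.0 CPM per kb), Tnfaip3 (4.39), Nfkbiz (4.20), Tlr2 (3.93), Tlr3 (0.959), Nod1 (0.906), Tlr4 (0.545), Tlr5 (0.273), Nod2 (0.0401) and Tlr9 (0.00905), with gaps only between Myd88 and Tnfaip3 and between Tlr2 and Tlr3. Tlr5 thus went from the top of the 5 Toll-like receptors to a place below Tlr4. In each of the 5 WT libraries the order per kb was Tlr5, Tlr2, Tlr3, Tlr4 and Tlr9, and in each KSR23 library Tlr2, Tlr3 and Tlr4 came before Tlr5. The level of Tlr2 per kb was 0.44 to 0.762 times that of Tlr5 in WT libraries and 9.89 to 105 times in KSR23 libraries, where the highest ratio came from replicate 2 with its 5 counts of Tlr5.

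The positions of single libraries within their groups differed between genes. Tlr2, Tlr3 and Tlr4 were each lowest of the WT libraries in replicate 3, at -0.65, -0.43 and -0.57 from the group mean of log2 CPM. WT replicate 1 and KSR23 replicate 3 were the lowest of their groups for Myd88 and the lowest of their groups for Nod1, and they differed from that mean by -0.54 and -1.002 for Myd88 and by -1.51 and -1.96 for Nod1. The same libraries were the highest of their groups for Tlr2, at 0.77 and 0.72 above the group mean. KSR23 replicate 3 was also the highest KSR23 library for Tlr3, Tlr5 and Tnfaip3. WT replicate 1 and KSR23 replicate 3 were also the libraries that most often held the extreme value of their group, at 67.1% and 75.6% of the 9737 genes. These positions are descriptive, over 5 libraries a group.

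**Figure D4:**
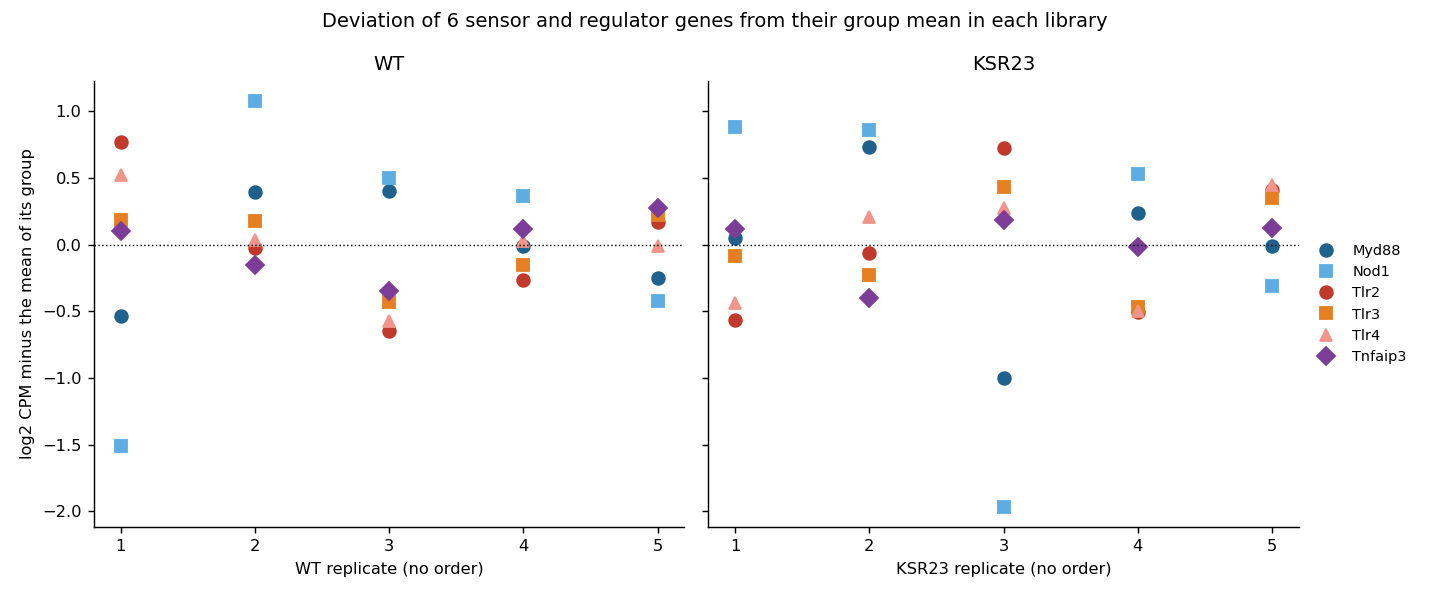
Deviation of log2 CPM from the group mean (y axis) for 6 of the genes in each WT library (left) and each KSR23 library (right), with replicate numbers on the x axis, which have no order. Myd88 and Nod1 (blue) are lowest in WT replicate 1 and KSR23 replicate 3, where Tlr2 (red) is highest.

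For the 5 genes called by both tests, the genes with the most similar profile were those with the smallest root mean square difference of centred log2 CPM over the 10 libraries, among 9737 genes with a mean of 5 CPM or more. Tnfaip3 lay closest to Tifa (0.214), Tgtp2 (0.254) and Rassf4 (0.26). Tlr2 lay closest to Cd38 (0.221), Slc13a2 (0.228) and Hsd11b1 (0.232), and Tlr3 to Rlim (0.155), Shoc2 (0.16) and Nbr1 (0.165). Nfkbiz lay closest to Sema6d (0.278), Gsr (0.292) and B4galt1 (0.293). Tlr5 lay closest to Ppp1r32 (0.271), Zdhhc19 (0.315) and Cubn (0.34), the last of which encodes cubilin, an endocytic receptor. All of these profiles contain the difference between the groups.

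**Figure D5:**
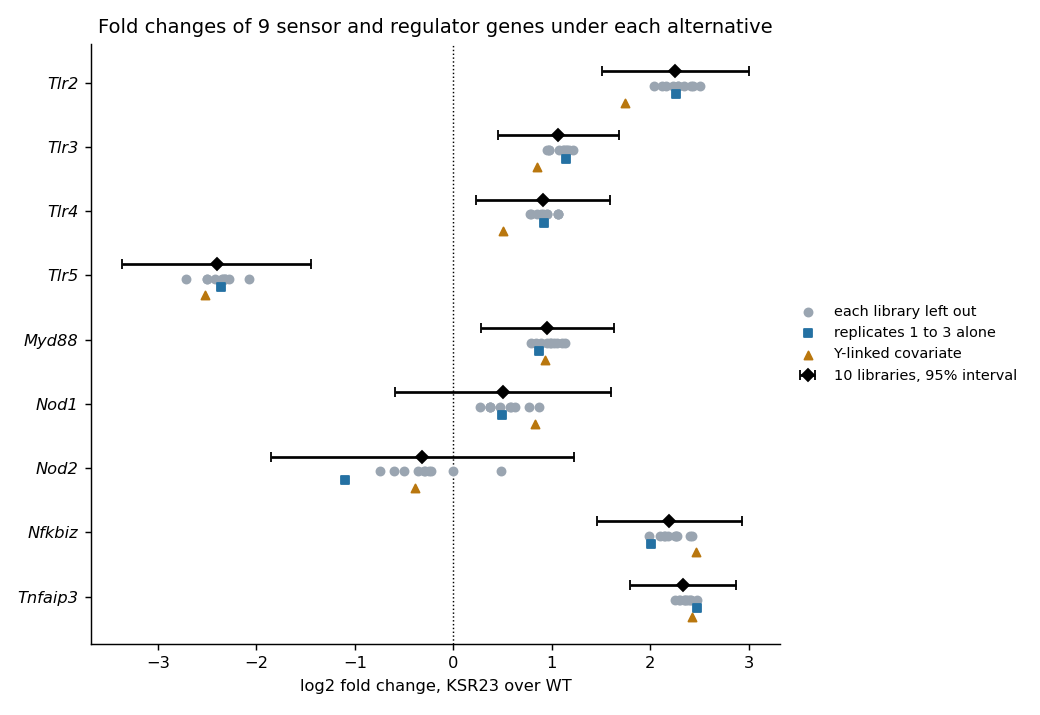
Log2 fold change of KSR23 over WT (x axis) for 9 of the genes, with the fit on 10 libraries and its 95% interval (black), each library left out in turn (grey circles), replicates 1 to 3 alone (blue squares) and the Y-linked covariate (orange triangles). Tlr2, Tlr3, Tlr4, Myd88, Nod1, Nfkbiz and Tnfaip3 stay above 0 and Tlr5 below 0 in each of these fits. Nod2 falls on both sides of 0, and the interval of Nod1, which was not called, spans 0.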

How the data were processed

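RNA of whole jejunum was primed with oligo-dT, amplified by PCR without molecular identifiers and sequenced as single-end 75-base reads. The deposited values were whole-number counts per gene symbol in 1 file per library, which the authors made, per the submitters' processing notes and the study's methods, with FastQC, TopHat2 2.1.0 (mm10) and HTSeq 0.6.1p1, keeping reads within 1 gene's transcript models. The strand setting was not given in the sources used here, and reads in no feature (6.2% to 10.2%) stayed out of the totals. The limit of 3 counts covers counting error only.

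Counts were fitted with edgeR 4.0.16 in R 4.3.3 with the group as the sole term, TMM factors and the 17632 genes that reached 5 counts in any library. The likelihood ratio test, as in the study's methods, is the main test, with the quasi-likelihood F test beside it. Adjusted p-values are Benjamini-Hochberg over all genes tested, SEs come from the fit, and 95% intervals are normal. CPM values use TMM-scaled totals; log2 CPM has a prior count of 2. Coordinates and exon lengths came from GENCODE M21 and promoters from RefSeq. The fit was also run on simulated counts of independent libraries, which cannot show whether the real libraries were independent.

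The genes and the pathway and marker lists were chosen with earlier results of these data known. Named are all 10 genes and, from each pathway list, at most 5 genes with the largest change among those called by both tests and the direct partners of the 10 (Cd14, Ly96, Ripk2, Tirap, Ticam1, Tnip1, Nfkbia, Unc93b1, Nfkb1). Tlr6, Naip5, Naip6, Slc15a4, Ikbkb, Birc3, Ccl5 and Sarm1 lie outside this rule and were chosen after their values were seen. The labels do not tie the replicate numbers to animals or litters, so p-values measure the spread between these samples. The alternatives were DESeq2 1.42.0, other scalings and filters, each library left out, replicates 1 to 3 alone, a replicate block and the level of 4 Y-linked genes as a covariate.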

Additional observations from a re-analysis of the deposited data

How the results depend on the processing

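Tnfaip3 kept its direction and its call under all 20 alternatives, Tlr2 under 19, Tlr5 and Nfkbiz under 18, Tlr3 under 16, Myd88 under 8 and Tlr4 under 5, and none of these 7 genes changed direction. DESeq2 called 6 of the 10 genes higher and 1 lower (1890 and 1754 of all genes). With each library left out in turn, 4 to 6 were higher and 1 lower, and 1252 to 2102 of all genes were higher and 1062 to 1882 lower. With replicates 1 to 3 alone, 2 of the 10 were higher and 0 lower (346 and 233 of all genes) by the likelihood ratio test, and 1 higher and 0 lower (99 and 41 of all genes) by the quasi-likelihood test; this alternative has 6 libraries. With the Y-linked covariate 3 of the 10 and 1030 of all genes were higher. Tlr3, Tlr4 and Myd88 lost their calls, at 0.85, 0.50 and 0.93 against 1.07, 0.91 and 0.95 in the main fit. The cause was not tested. The labels do not say that the replicate numbers mark a shared litter or batch. The deviations of same-numbered libraries from their group means correlated at -0.74, 0.406, -0.689, 0.359 and 0.486 for numbers 1 to 5. Of the WT libraries only replicate 4 correlated best with the KSR23 library of its own number, so pairing was not shown. The replicate block left 3 of the 10 higher (Tlr2, Nfkbiz, Tnfaip3) and 1082 of all genes, with Tlr3 at 1.04 (adjusted p = 0.0559), Tlr4 at 0.90 (0.176) and Myd88 at 0.92 (0.126). Nod2, not called in any fit, turned direction under the block (0.0179), and with each library left out in turn it ranged from -0.75 to 0.48, the latter without WT replicate 2. Scaling by library totals alone moved the share of higher calls among all calls from 52.6% to 43.2%, with 4 of the 10 higher, and the covariate moved it to 42.9%. Tlr9 and Nod2 had only 0 to 19 counts a library, and Nod2 also spread widely within WT (1 to 19 counts).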

Other observations

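The gene closest in profile to Tnfaip3 was Tifa, and its upstream partner was therefore examined, both chosen after their values were seen. The profile contains the group difference, so the change of Tifa was given by the choice and its p-values are a description only. TIFA carries the signal of the cytosolic kinase ALPK1, a sensor of a bacterial sugar intermediate, to TRAF6 and NF-kB. Tifa stood at 69.5, 63.9, 59.3, 62.3 and 67.7 CPM in WT and at 264, 211, 427, 280 and 405 CPM in KSR23 (log2 fold change 2.30, SE 0.26, adjusted p = 1.93e-14 in the edgeR likelihood ratio fit, 5.36e-05 under quasi-likelihood). Alpk1 stood at 2.26, 1.38, 2.24, 2.07 and 2.48 CPM in WT and at 19.5, 21.4, 44.6, 24.6 and 37.0 CPM in KSR23 (3.82, SE 0.34, adjusted p = 6.87e-22 and 1.66e-05). With replicates 1 to 3 alone the values were 2.26 (adjusted p = 0.00102 and 0.0557 in the same 2 fits) for Tifa and 3.89 (9.68e-07 and 0.0186) for Alpk1. Neither gene overlapped between the groups, and the log2 fold change of Alpk1 was above that of each of the 10 sensor and regulator genes.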
